A study of Mus musculus with 8 samples.

Results

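Caveolins are the membrane proteins that build caveolae, the small flask-shaped pits of the plasma membrane. The mouse has 3 of them, and the array used here carried 1 probe for each that the platform annotation assigned to a single gene. These 3 probes, for Cav1, Cav2 and Cav3, are described below out of 31769 probes in all and 14750 tested features. The whole series held 8741 named genes that could be tested. The family was chosen by its measured log2 ratios in the comparison of HDAC4 with Neo, which set the muscle caveolin apart from the others, so that comparison is given for it as a description with no test.

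The cells were C2C12, an established myoblast line from C3H mice whose cells fuse into myotubes in low serum. The first group, called HDAC4 here, had been stably selected with a retrovirus encoding HDAC4 and Neo. The control cells, called Neo, had been selected with a retrovirus encoding Neo alone, so both carried the selection gene. Both were starved of serum (2% horse serum) for 4 days from 90% confluence, and each group had 4 samples, numbered 1 to 4 in the labels. The labels do not say whether the selected cells were pools or clones, or whether the numbered samples grew as separate cultures. The p-values below therefore measure the spread between 8 samples, and that spread may be technical. Each array held the RNA of 1 sample in Cy5 and a common murine reference RNA in Cy3. The study's title names the repression of the dystrophin-glycoprotein complex, a membrane complex of muscle with which Cav3 associates, by the deacetylase HDAC4.

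Cav1 is the caveolin of fibroblasts, endothelial cells and adipocytes, and is needed there for caveolae to form. Cav2 forms mixed oligomers with Cav1 and depends on it to leave the Golgi apparatus. Cav3 is the caveolin of striated muscle. It coats the caveolae of the muscle surface membrane and takes part in building the T-tubules, and in humans its mutation causes limb-girdle and rippling forms of muscle disease. Cavins, EHD proteins and pacsins complete the caveolar coat and neck, and cholesterol is a structural part of the pit.

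The members of the family differ in where their genes lie and in their start regions. Cav2 and Cav1 are neighbouring protein-coding genes on mouse chromosome 6 in the RefSeq annotation of GRCm38.p6, between Tes and Met, while Cav3 lies elsewhere on the same chromosome, between Ssu2 and Oxtr. The windows below, from RefSeq, hold 250 bases before and 50 after a gene's start on the plus strand. They are shown because the Cav3 window differs from those shown for Cav1 and Cav2 in some of the short motifs searched. Capitals mark each E-box, searched as CANNTG, the class of site that myogenic bHLH factors such as MyoD and myogenin bind. The sequence CANNTG reads the same on both strands.
Cav3, chr6:112459255-112459554: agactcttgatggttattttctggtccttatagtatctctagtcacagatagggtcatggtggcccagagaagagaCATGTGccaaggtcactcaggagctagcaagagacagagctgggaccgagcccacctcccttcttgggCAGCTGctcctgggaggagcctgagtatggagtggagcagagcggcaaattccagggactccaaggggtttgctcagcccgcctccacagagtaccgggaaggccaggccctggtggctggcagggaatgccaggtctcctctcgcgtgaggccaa
Cav1, chr6:17306085-17306384: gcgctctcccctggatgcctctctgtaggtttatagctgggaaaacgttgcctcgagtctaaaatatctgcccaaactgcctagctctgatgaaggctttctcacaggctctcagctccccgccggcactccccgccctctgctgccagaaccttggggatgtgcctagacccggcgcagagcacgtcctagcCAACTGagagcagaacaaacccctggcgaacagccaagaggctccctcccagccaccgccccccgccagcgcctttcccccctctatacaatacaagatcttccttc
Cav2, chr6:17280935-17281234: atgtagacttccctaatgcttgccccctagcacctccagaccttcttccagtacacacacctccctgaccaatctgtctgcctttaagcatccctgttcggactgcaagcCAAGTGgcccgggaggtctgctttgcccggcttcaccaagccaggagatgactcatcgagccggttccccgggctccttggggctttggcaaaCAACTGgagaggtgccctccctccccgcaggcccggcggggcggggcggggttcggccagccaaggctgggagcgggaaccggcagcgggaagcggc

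The Cav3 window held 2 E-boxes, the first 174 bases and the second 106 bases before the start. The second has the core letters CAGCTG, which were found in no window of Cav1 or Cav2 and in 16.3% of 32851 windows of the same length in the table. An E-box of any kind is common, with a match in 72.3% of windows. The Cav1 window shown held 1 E-box, and that of Cav2 held 2. The GC box, searched as GGGCGG on both strands, matched at 2 places in each of these Cav1 and Cav2 windows and nowhere in that of Cav3, against 35.7% of all windows with a match. The window of a second Cav1 start, not shown, had 0 matches, as that of Cav3 had. The muscle MCAT element, searched as CATTCC on both strands, matched once in Cav3, 18 bases after the start, and not in Cav1 or Cav2, against 14.7% of all windows. Neither the MEF2 site nor the CArG box had a match in any of the caveolin windows, including that second Cav1 start, against 3.19% and 1.63% of all windows. The motifs were chosen after the sequences had been seen, and a match is a description of letters only.

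All 3 probes carried a value on all 8 arrays. The values are log2 ratios to the reference RNA, likely cells over reference, with each array centred on its median. This direction is not stated in the labels and was read from contractile genes, which lay far above 0. The probes for Cav1 and Cav2 lay below 0 on every array, so the cells gave less signal than the reference. Every Cav3 value lay at what is called here the reference floor: 10 times the ratio was a whole number within 0.001, as if the reference signal had been set to 10 units. A Cav3 ratio therefore reads the signal of the cells alone, and its size is no fold over the reference. The floor is inferred from the values.

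Cav3, the muscle caveolin, was lower on every HDAC4 array than on any Neo array. Its centred log2 ratios were 6.67, 5.98, 6.18 and 6.18 in HDAC4 samples 1 to 4, against 7.79, 7.08, 7.11 and 7.44 in Neo samples 1 to 4. In the cells' channel this corresponds to 1024, 635, 738 and 737 units in HDAC4, against 2232, 1358, 1388 and 1767 units in Neo. The groups did not overlap, and within each group the array numbered 1 was the highest. The mean was 6.25 ± 0.30 in HDAC4 and 7.35 ± 0.33 in Neo (SD, n = 4 each), a difference of -1.10 on the log2 scale or a 2.14-fold lower signal. In RNA from a whole culture, fewer cells that express a gene and less RNA per cell cannot be told apart.

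Cav1, a widely expressed caveolin, differed little. Its log2 ratios were -1.06, -1.82, -1.67 and -1.59 in HDAC4 samples 1 to 4, against -1.38, -1.52, -1.43 and -1.54 in Neo samples 1 to 4. The HDAC4 array numbered 1 was above all Neo arrays and the other HDAC4 arrays were below them. The means were -1.54 ± 0.33 in HDAC4 and -1.47 ± 0.07 in Neo (SD, n = 4 each), and the difference of -0.07 was smaller than the SD within HDAC4. It was 0.028 without HDAC4 replicate 2 and -0.23 without HDAC4 replicate 1. The cells' signal was 2.90-fold below the reference in HDAC4 and 2.77-fold below it in Neo.

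Cav2, the partner of Cav1, had log2 ratios of -2.42, -2.88, -2.64 and -2.84 in HDAC4 samples 1 to 4, against -3.11, -2.23, -2.34 and -2.42 in Neo samples 1 to 4. Here the Neo array numbered 1 was the lowest of all 8, Neo samples 2 and 3 were above all HDAC4 arrays, and Neo sample 4, at -2.4245, was just below HDAC4 sample 1, at -2.4184. The means were -2.69 ± 0.21 in HDAC4 and -2.53 ± 0.40 in Neo (SD, n = 4 each). The difference of -0.17 was smaller than either SD. Leaving out 1 array in turn moved it between -0.36, without Neo replicate 1, and -0.07, without Neo replicate 2.

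**Figure D1:**
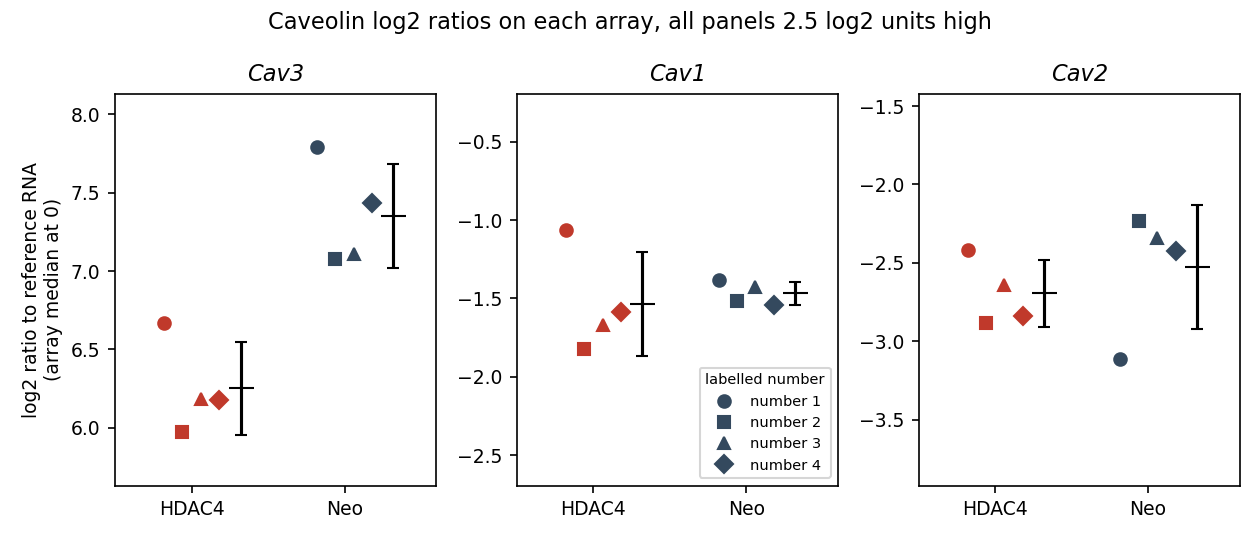
Log2 ratio to the reference RNA (array median at 0) for Cav3, Cav1 and Cav2 on each array, HDAC4 left and Neo right, with a symbol for each labelled number and the mean with its SD in black (n = 4). Cav3 separates the groups, with means of 6.25 in HDAC4 and 7.35 in Neo, while the Cav1 and Cav2 values of the groups overlap.

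Against the background of the whole array, 3.2% of the 14750 features had groups that did not overlap with HDAC4 lower (5.32% in either direction), and 1 of the 3 caveolins, Cav3, was among them. At an adjusted p under 0.05 in limma, 0.115% of features were called, 17 in number. With the replicate number as a block 9 were called. No caveolin was among the 17, and since the members were chosen with this comparison in view nothing is read from these counts. Of all tested features, 0.563% had a lower difference than Cav3, 22.5% a lower one than Cav2 and 37.8% a lower one than Cav1. The median difference over all features was -0.00279.

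The unequal behaviour of the family can be followed within each array, as a description of the contrast by which the family was set out. The log2 ratio of Cav3 minus that of Cav1 was 7.73, 7.80, 7.85 and 7.77 in HDAC4 samples 1 to 4, against 9.17, 8.60, 8.54 and 8.98 in Neo samples 1 to 4. The HDAC4 values had an SD of 0.049, against 0.31 in Neo (n = 4 each), and all lay below the Neo values. Because the 2 probes have different reference signals, the gap itself is no ratio of amounts. Its shift between the groups was -1.03. That shift sets a probe at the reference floor against one with no value there. Probes at the floor were lower in HDAC4 as a class, with a median difference of -0.55. With the floor probes centred, as given below, Cav3 was at -0.55 or -0.76 and Cav1 stayed at -0.07. The shift of Cav3 minus Cav2 was -0.93, with the same limit. That of Cav2 minus Cav1 was -0.10, with an SD of 0.18 in HDAC4 and 0.45 in Neo (n = 4 each).

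In both groups the array numbered 1 was unlike the others. Across probes this pair correlated at 0.938, its highest correlation with one of the other 6 arrays was 0.899, and those 6 correlated among themselves at 0.928 or more. The caveolins were therefore also compared between same-numbered arrays, HDAC4 minus Neo. For Cav3 the differences were -1.12, -1.10, -0.92 and -1.26 in numbers 1 to 4, all on the same side. For Cav1 they were 0.32, -0.31, -0.24 and -0.05. For Cav2 they were 0.69, -0.65, -0.30 and -0.42. Cav1 and Cav2 thus had the same signs, higher in HDAC4 in number 1 and lower in numbers 2 to 4. The arrays behind the number 1 sign differed. For Cav1, HDAC4 sample 1 was the highest value, at -1.06, and for Cav2, Neo sample 1 was the lowest, at -3.11. The same signs were found in 11.1% of the 13108 features with values on all arrays. A difference below 0 in all 4 numbers, as in Cav3, was found in 10.9% of them.

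**Figure D2:**
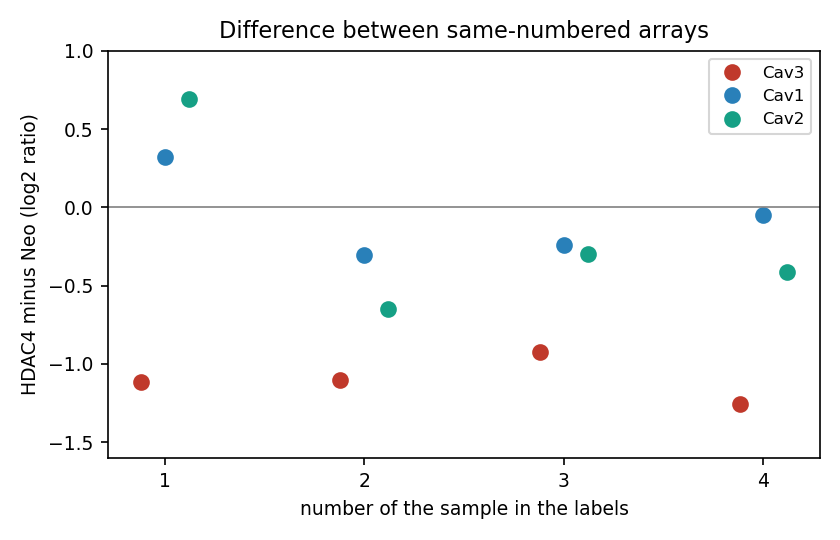
HDAC4 minus Neo (log2 ratio) between arrays with the same number in the labels, for Cav3, Cav1 and Cav2, with a point for each number. Cav3 lies between -1.26 and -0.92 in all 4 numbers, and Cav1 and Cav2 lie above 0 in number 1 and below 0 in the others.

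Without both arrays numbered 1, the widely expressed caveolins were lower in HDAC4 too, by less than Cav3. Cav2 had a mean of -2.79 ± 0.13 in HDAC4 and -2.33 ± 0.10 in Neo (SD, n = 3 each), a difference of -0.46 or a 1.37-fold lower signal. Cav1 had a mean of -1.69 ± 0.12 in HDAC4 and -1.50 ± 0.06 in Neo (SD, n = 3 each), a difference of -0.20. Cav3 had a mean of 6.11 ± 0.12 in HDAC4 and 7.21 ± 0.20 in Neo (SD, n = 3 each), a difference of -1.10. In these 6 arrays the groups did not overlap for any of the 3 genes, as for 13.7% of the features with HDAC4 lower. The differences remain a description, on the arrays that the choice of members had used.

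The comparison of number 1 with numbers 2 to 4 was not used to choose the members and was tested, with the group as a term. The arrays numbered 1 were already known from earlier results to stand apart. The p-values of this comparison therefore do not come from a split set before the data were seen. The comparison called 20.3% of 14636 features in limma, 9.97% as higher in number 1 and 10.4% as lower. Cav3 was higher in the arrays numbered 1, with a mean of 7.23 against 6.66 in the others, a difference of 0.57 ± 0.14 (SE; adjusted p = 0.0228). The call did not hold without Neo replicate 1 (adjusted p = 0.093), without HDAC4 replicate 1 (0.0821) or with quantile normalization (0.0538). The difference was 0.96 with the floor probes centred together (adjusted p = 0.00639) and 0.48 with them centred by level (adjusted p = 0.0449). Without 1 of the arrays numbered 1, a single array stands for number 1 and is assumed to vary like the others. Cav1 had a mean of -1.22 in the arrays numbered 1 against -1.59 in the others, a difference of 0.37 ± 0.14 that did not pass in limma (SE; adjusted p = 0.101). It passed without Neo replicate 1, where HDAC4 replicate 1 alone stood for number 1 (0.63, adjusted p = 0.0378), and with quantile normalization (0.58, adjusted p = 0.0331). Cav2 had a mean of -2.76 in the arrays numbered 1 against -2.56 in the others, a difference of -0.20 ± 0.23 (SE; adjusted p = 0.555 in limma). Its direction turned with the array left out, to 0.37 without Neo replicate 1 (adjusted p = 0.16), and it was -0.78 without HDAC4 replicate 1 (adjusted p = 0.0252), where number 1 was Neo replicate 1 alone, the lowest of the 8 Cav2 values. With quantile normalization it was 0.13.

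Cav3 was read at the reference floor, and probes at that floor differed between the groups as a class. Apart from Cav3, 205 probes were at the floor on all 8 arrays, and 185 of them were lower in HDAC4, with a median difference of -0.55. Among the 41 with a mean log2 ratio above 6, the level at which Cav3 lay, the median was -0.25 and 32 were lower. In this band 2 probes had a lower difference than Cav3, and over all levels 27 of the 205 did. Centring the floor probes on those of the same band left Cav3 at -0.76, and centring them on the median of all floor probes, array by array, left it at -0.55. The first of these was added after the data were seen. The probes for Cav1 and Cav2 had no value at the floor, so these 2 choices did not move them.

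**Figure D3:**
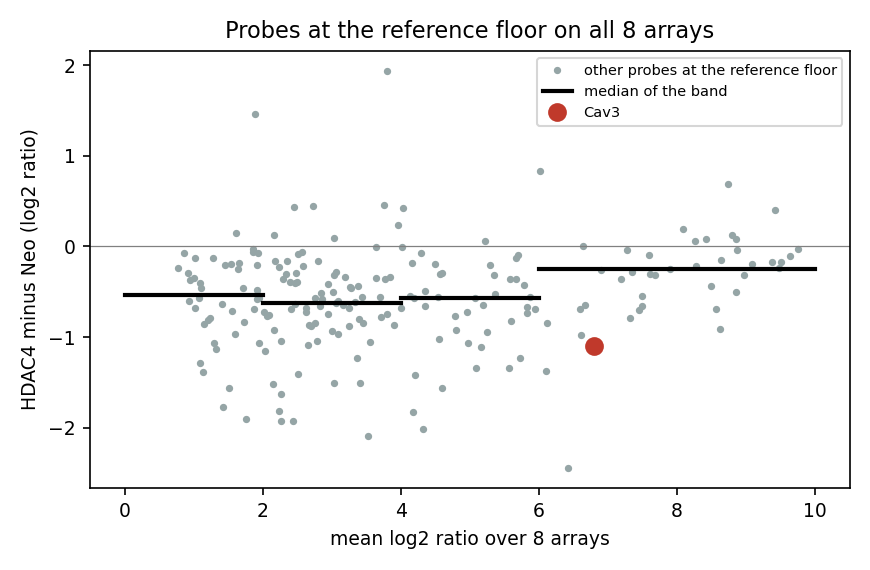
HDAC4 minus Neo (log2 ratio) against the mean log2 ratio over 8 arrays for the probes at the reference floor on all arrays, with grey points for single probes, black lines for the median of each band of level and a red point for Cav3. Cav3, at -1.10, lies below the median of -0.25 for the 41 other probes above 6.

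The summed level of myotube markers was lower in HDAC4, as Cav3 was. Of the 15 listed genes, 10 were matched by symbol and tested, 9 had a lower mean in HDAC4, and the median difference was -0.42. The listed Acta1 was not matched to a feature written as ACTA1, which these counts and the sums below leave out. That feature, all at the floor, had a difference of -0.32 (adjusted p = 0.906 in limma). Over all features 50.5% had a lower mean. Of the 205 probes other than Cav3 at the floor on all 8 arrays, 185 were lower, with a median of -0.55. The marker counts are thus not set apart from those of floor probes as a class. Many of the marker probes are themselves among those 205, so the 2 sets overlap and the comparison is not an independent one. In limma 0 of the 10 markers passed at an adjusted p under 0.05, with 2, Myh2 and Mb, at an unadjusted p under 0.05. Of all features 7.34% were at that unadjusted level. The fast myosin heavy chain gene Myh2 was at 4.79 ± 0.36 in HDAC4 and 6.21 ± 0.38 in Neo (SD, n = 4 each; adjusted p = 0.0794 in limma). It passed with the replicate block (adjusted p = 0.0379) and with number 1 as a term (adjusted p = 0.00625). The myoglobin gene Mb had a difference of -0.91 and the fast troponin T gene Tnnt3 one of -0.99 (adjusted p = 0.518 and 0.801 in limma). The log2 ratios of the 10 markers summed to between 63.8 and 70.1 on HDAC4 arrays, against 73.6 to 74.9 on Neo arrays. Without Actn2, which stood at 0.67 in HDAC4 sample 2 and between 6.45 and 6.99 in the other HDAC4 samples, the sums were 59.9 to 63.5 in HDAC4, against 66.0 to 67.4 in Neo. Of the values of these markers, 97.0% were at the reference floor. Their part in the Cav3 result was not tested. Myog, a driver of the myogenic programme, was the 1 member with a higher mean in HDAC4, with 8.53, 8.20, 7.83 and 8.19 in HDAC4 samples 1 to 4, against 8.15, 8.51, 7.51 and 7.82 in Neo samples 1 to 4 (adjusted p = 0.931). The creatine kinase gene Ckm had a difference of -0.17 (adjusted p = 0.923).

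Cav1 and Cav2 abound in fibroblasts, endothelial cells and adipocytes. Of the fibroblast markers 6 of 8 genes were tested, 4 had a higher mean in HDAC4, and the median difference was 0.31. In limma 0 of them passed, with 1, Thy1, at an unadjusted p under 0.05 (difference 1.29, adjusted p = 0.677). Of all features 7.34% were at that unadjusted level, and 50.5% had a lower mean in HDAC4. The log2 ratios of the 5 fibroblast genes with all values summed to between -8.16 and -5.99 on HDAC4 arrays, against -11.97 to -7.10 on Neo arrays, and the part of these genes in the Cav1 and Cav2 values was not tested. Endothelial and adipocyte markers had few values. Each array held values for 1 to 6 of 14 endothelial probes, and Pecam1 was the single endothelial gene that could be tested, at -2.55 ± 0.24 in HDAC4 and -2.04 ± 0.36 in Neo (SD, n = 4 each; adjusted p = 0.606). The defining genes Cdh5, Kdr, Tek, Tie1, Flt1 and Vwf had too few values. Of the adipocyte genes only Pparg and Lpl could be tested, with differences of -0.18 and -0.19, and Adipoq, Plin1 and Fabp4 had too few values. The liver genes, named because a labelling protocol gives liver as the source of the reference, had between 0 and 4 values on an array from 14 probes.

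The genes that complete the caveolar coat and neck were split between both directions. Of 13 genes, 12 were tested, 5 were lower and 7 higher in HDAC4, and the median difference was 0.02. In limma 0 passed, with 1 at an unadjusted p under 0.05, against 7.34% of all features at that level. With the replicate block and with number 1 as a term the count of calls was also 0.

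The cavins form the coat around the caveolins. Cavin4, the muscle cavin, had log2 ratios of 6.53, 6.63, 5.88 and 6.21 in HDAC4 samples 1 to 4, against 7.07, 6.78, 6.37 and 6.78 in Neo samples 1 to 4. The groups overlapped, but the same-numbered differences of -0.54, -0.14, -0.50 and -0.57 were all below 0. The difference of -0.44 ± 0.21 did not pass in limma (SE; adjusted p = 0.712), and 62.5% of its values were at the floor. Cavin1, required for caveolae in all tissues, had a difference of 0.20 ± 0.17 (SE; adjusted p = 0.883). Its probes disagreed, at 0.48 and -0.08, and the first of them ranged from -1.27 to 0.05 in HDAC4 and from -1.69 to -0.12 in Neo. Cavin2 had a difference of -0.16 and Cavin3 one of -0.12, with adjusted p of 0.925 and 0.954.

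The EHD proteins are ATPases that hold caveolae at the membrane. Ehd4 was the member with the smallest p, at 2.46, 2.62, 2.93 and 2.81 in HDAC4 samples 1 to 4, against 2.45, 2.39, 2.45 and 1.97 in Neo samples 1 to 4. The groups did not overlap, as for 5.32% of all features in either direction, and the difference of 0.39 ± 0.16 did not pass in limma (SE; adjusted p = 0.654). Ehd1 had a difference of 0.16, Ehd2, the EHD protein of the caveolar neck, one of 0.03, and Ehd3 one of -0.09, with adjusted p of 0.902 or more. The dynamins, GTPases that cut vesicles from the membrane, gave 0.16 for Dnm1 and 0.0021 for Dnm2. Pacsins bend the membrane at the neck. Pacsin2 had a difference of -0.16 and Pacsin3, the pacsin of muscle caveolae, one of 0.14, with probes at -0.03, 0.41 and 0.05. Pacsin1, the neuronal pacsin, had values on all 4 Neo arrays and on HDAC4 sample 1 alone, all at the floor, and was not tested.

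**Figure D4:**
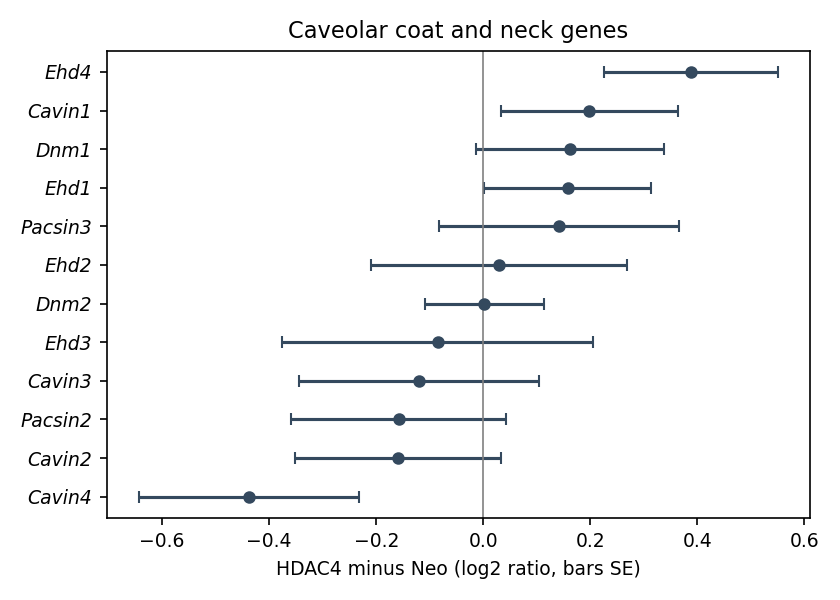
HDAC4 minus Neo (log2 ratio) with its SE for the 12 tested genes of the caveolar coat and neck, ordered from the highest difference at the top. The differences run from 0.39 for Ehd4 to -0.44 for Cavin4, and in limma 0 of the 12 passed.

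Of the 12 tested coat genes, 2 were called between the arrays numbered 1 and the others. This share is no larger than that over all features, so nothing about coat genes is read from the count. Pacsin2 was higher in them by 0.57 (adjusted p = 0.0179), and Ehd2 was lower, with a difference of -0.72 (adjusted p = 0.0094). Both calls are from the limma fit with the group as a term, in which 20.3% of features were called.

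Of the proteins that bind Cav3 or depend on it in muscle, 7 of 10 were tested, 4 were lower and 3 higher, with a median difference of -0.06. Over all features 50.5% had a lower mean. In limma 0 passed, with 3 at an unadjusted p under 0.05, against 7.34% of all features. The smallest p was that of Slc2a4, the insulin-responsive glucose transporter GLUT4, at 1.32 ± 0.72 in HDAC4 and 3.14 ± 0.22 in Neo (SD, n = 4 each; adjusted p = 0.0988). All its values were at the floor. It passed with number 1 as a term (adjusted p = 0.0131), where 0.624% of features were called, and without HDAC4 replicate 1 (adjusted p = 0.00795). Capn3, the muscle calpain, had a difference of -0.74 ± 0.22 and Pfkm, the muscle phosphofructokinase, one of -0.39 ± 0.15 (SE; adjusted p = 0.416 and 0.606 in limma). None of these 3 of the 7 tested genes had an HDAC4 value as high as its lowest Neo value, a separation that 3.2% of all features had with HDAC4 lower. Dysf, the membrane repair protein dysferlin, had a difference of 0.23 and Dag1, dystroglycan, one of 0.20 (adjusted p = 0.950 and 0.890). Dmd and Insr had too few values to be tested.

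Raft proteins and receptors that gather in caveolae were measured for all 19 listed genes. In HDAC4 9 were lower and 10 higher, with a median difference of 0.0012. In limma 0 passed, with 2 at an unadjusted p under 0.05, against 7.34% of all features. Nos3, the endothelial nitric oxide synthase that Cav1 holds inactive, was at -0.02 ± 0.09 in HDAC4 and 0.55 ± 0.13 in Neo (SD, n = 4 each; adjusted p = 0.206). Adra1b, an adrenergic receptor, had a difference of 1.05 ± 0.26 (SE; adjusted p = 0.302 in limma), and 0.81 with number 1 as a term (adjusted p = 0.0526). This gene had no value in HDAC4 sample 1, while its lowest Neo value, -0.24 in Neo sample 1, was kept. Without both arrays numbered 1 it passed, at 0.81 (adjusted p = 0.0227). Scarb1, a lipoprotein receptor, had a difference of -0.27 (adjusted p = 0.788).

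Genes of cholesterol synthesis, which supply a lipid that caveolae need, had higher means in HDAC4 in 14 of 15 tested cases, with a median difference of 0.25, against 50.5% of all features with a lower mean. In limma 0 passed, with 1 at an unadjusted p under 0.05, against 7.34% of all features. That gene was Fdft1, which makes squalene, at 1.39 ± 0.12 in HDAC4 and 0.92 ± 0.12 in Neo (SD, n = 4 each; adjusted p = 0.321). Sc5d and Mvk had differences of 0.41 and 0.34 (adjusted p = 0.683 and 0.739). Without HDAC4 replicate 1 the count of lower members was 5 of 15. Of the 15 genes, 5 were called higher in the arrays numbered 1, against 9.97% of all features.

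Among the muscle regulatory factors, 5 of 9 tested genes were lower and 4 higher in HDAC4, with a median difference of -0.02. Over all features 50.5% had a lower mean. In limma 0 passed, against 0.115% of all features, with 2 at an unadjusted p under 0.05, against 7.34% of all features. Myf6, a late myogenic factor read at the floor, had a difference of -0.88 ± 0.20 (SE; adjusted p = 0.223). Mef2a, a partner of class IIa deacetylases, had one of 1.15 ± 0.41 (SE; adjusted p = 0.581), and Six4 one of 0.69 (adjusted p = 0.786). With number 1 as a term both Mef2a and Myf6 passed (adjusted p = 0.0283 and 0.0495), where 0.624% of all features were called. With the floor probes centred by level as well, Mef2a passed and Myf6 did not. Myod1, which starts the myogenic programme, had a difference of -0.25 (adjusted p = 0.911).

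The genes whose values were most like each caveolin were sought by Pearson's r over the 8 arrays among 7933 other named genes with all values. Arrays of 2 groups and of number 1 are clustered, so r describes likeness and carries no p. For Cav3 they were Yaf2 (r = 0.988), Osbpl3, Phospho1, P4ha2 and Sema3a (r = 0.975), with differences between -0.64 and -0.35 and adjusted p from 0.269 to 0.546. For Cav1 they were Tomm6 (r = 0.982), Sf3b1, Bin3, Ago1 and Casp2 (r = 0.968). For Cav2 they were Iqce (r = 0.960), B2m, Dpt, Col3a1 and Axl (r = 0.929), among them the matrix genes Dpt and Col3a1. By deviations from the group means the lists were Rnf44, Azin1 and Atpsckmt for Cav3, Tnip1, Sf3b1 and Gorasp2 for Cav1, and Asap1, B2m and Myoz1 for Cav2, with r from 0.982 to 0.988. Sf3b1 for Cav1 and B2m for Cav2 were named by both measures, and no gene was for Cav3.

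No probe of the annotation names Hdac4 alone, so the level of the introduced gene was not checked against the labels. The arrays carried values for 17014 to 18521 probes in HDAC4 and for 19248 to 22193 in Neo. The mean was 17843.5 ± 699 in HDAC4 and 20651.5 ± 1325 in Neo (SD, n = 4 each), and a two-sided exact permutation test gave p = 0.0286, the lowest value this design can reach. The caveolin probes had a value on every array, so this gap in coverage left none of their values out.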

How the data were processed

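Log2 ratios of 31769 probes on 8 arrays of the 2-colour kind were used as the authors deposited them. Per the labels, samples were in Cy5 and a reference RNA in Cy3 on every array, with no dye swap. The labels name no background correction, normalization or software. Column medians lay between 0.00576 and 0.0286, so scale and centring were settled from the values and the direction is only likely. Of the probes, 18976 name 1 gene, 404 several and 12389 none, with symbols updated through GRCm38.p6 identifiers (41 kept as annotated).

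Arrays were centred on their medians and probes of a gene averaged. Features with at least 3 values per group (14750) entered limma 3.58.1 in R 4.3.3 (lmFit, eBayes), with Benjamini-Hochberg adjustment at 0.05, first tested on simulated data. The number of arrays limits the precision. Members and lists were chosen with earlier results of these data known. Named genes were the members, the coat genes, the 3 members of each other list with the smallest p, and the genes most like each caveolin; Myog, Ckm, Myh2, Mb, Tnnt3, Actn2, Myod1, Dysf, Dag1 and the marker genes were added after their values were seen. Deviations from the group means of same-numbered arrays correlated at 0.522, 0.300, 0.188 and 0.112 for numbers 1 to 4, all above the limit of 0.1 set for pairing. Some differently numbered arrays passed that limit too, such as HDAC4 sample 4 with Neo sample 3 (0.222). The limit therefore cannot show that the numbers pair the arrays. HDAC4 samples 3 and 4 correlated best with Neo sample 2. Alternatives covered the replicate block, number 1, each array left out, centring, the floor, missing values and probe averaging. Motifs were searched in Python 3.11.15.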

Additional observations from a re-analysis of the deposited data

Results flagged for a closer look

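Of the genes named above, 49 were examined, and in 8 of 96 groups of 4 arrays 1 array stood apart from the other 3 by a gap above Dixon's critical share of the group's range. Chance gives this in about 5% of groups. No group of a caveolin was among them. Of the coat genes, Cavin2 stood at -2.09 in HDAC4 replicate 2, against -2.59 to -2.54 in the others. Cavin3 stood at -1.40 in Neo replicate 1, against -0.53 to -0.38. Ehd2 stood at -0.34 in HDAC4 replicate 1, against 0.40 to 0.42. Ehd4 stood at 1.97 in Neo replicate 4, against 2.39 to 2.45. Pacsin3 stood at 0.76 in HDAC4 replicate 1, against 1.56 to 1.72. Of the genes most like a caveolin, Dpt stood at -0.63 in Neo replicate 1, against 1.38 to 1.64, and Asap1 at -2.17 in Neo replicate 1, against -1.51 to -1.42. Yaf2 stood at 0.056 in HDAC4 replicate 1, against -0.18 to -0.15. In 6 of the 8 the array apart was numbered 1. Other genes named in the text were not examined, among them Dysf, Dcn and Actn2. Actn2 stood at 0.67 in HDAC4 replicate 2, against 6.45 to 6.99 in the other HDAC4 replicates.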

How the results depend on the processing

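Cav3 stayed lower in HDAC4 under every alternative that gave it a value, and leaving out 1 array gave -1.24 to -0.96. With floor probes centred it was -0.55, and -0.76 centred by level, with or without number 1 as a term. With floor values left out it had no value. Cav2 stayed lower in HDAC4 in every setting run, and leaving out 1 array gave -0.36 to -0.07. Cav1 ranged from -0.23 to 0.028 with 1 array left out, and turned round without HDAC4 replicate 2. The replicate block left all 3 differences as they were. Features called between HDAC4 and Neo numbered 17, and 9 with the replicate block, 92 with number 1 as a term, 305 without both arrays numbered 1, 4 with floor probes centred in either way, 1 with floor values left out, and 67 with number 1 as a term and the floor centred by level. With 1 array left out the count ran from 0 to 65. It was 65 without Neo replicate 1 and 62 without HDAC4 replicate 1, and 0 without Neo replicate 2, 3 or 4, where limma left 838, 877 and 861 features at an unadjusted p under 0.05. It was 3, 4 and 2 without HDAC4 replicate 2, 3 and 4. The contrast of number 1 called 2978 features, and with 1 array left out the lowest count was 1790, without HDAC4 replicate 1, and the highest was 3203, without Neo replicate 4; it was 1849 without Neo replicate 1. With floor values left out, 3 of 10 coat genes and 2 of 5 muscle regulatory factors were lower in HDAC4. Without both arrays numbered 1, 3 of 8 regulatory factors were lower, and with 1 array left out 3 to 5, the lowest without HDAC4 replicate 1. Of the cholesterol genes 1 was lower, against 0 with the replicate block, 2 without both arrays numbered 1, 0 with values on all 8 arrays, and 0 to 5 with 1 array left out. The replicate block gave 1 further call among the listed genes, that of Myh2 (adjusted p = 0.0379), and ended none. Filters leave fewer features, and other causes were not tested.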

Other observations

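Over all features, 50.5% had a lower mean in HDAC4 and 7.34% an unadjusted p under 0.05 in limma. Of 9 tested cell cycle genes 8 had a higher mean in HDAC4, with a median difference of 0.32. In limma 0 of these genes were past the threshold (1 at an unadjusted p under 0.05). In the arrays numbered 1, 6 were called higher, against 9.97% of all features, among them Mcm5 by 1.15 (adjusted p = 0.0015 in limma). Dcn, a matrix proteoglycan gene of fibroblasts, had a difference of -2.11 between the arrays numbered 1 and the others (adjusted p = 0.00357). Of 6 myoblast and satellite cell genes 4 had a lower mean in HDAC4, with a median difference of -0.05 and 0 past the threshold in limma (1 at an unadjusted p under 0.05). The syndecan gene Sdc4, which was that 1 gene, was at -0.47 ± 0.15 in HDAC4 and -0.93 ± 0.17 in Neo (SD, n = 4 each; adjusted p = 0.442 in limma).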
